A study of Mus musculus with 24 samples.

Results

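Dense-core granule proteins were followed at the RNA level in mouse cortex through 9 genes, chosen by name as granins and prohormone-processing proteins: Scg2, Scg3, Scg5, Chga, Chgb, Vgf, Pcsk1, Pcsk2 and Cpe. Each matched exactly 1 of the 43346 rows of the count table, and all 9 were among the 19678 genes with enough counts to be tested. The libraries were bulk RNA sequencing of the cortex of 24 mice on the C57BL/6 background, with 6 mice in each of 4 groups. All mice carried Cx3cr1CreER/+, a tamoxifen-dependent Cre recombinase under a promoter of microglia and other myeloid cells, together with TREM2-WT+/+ or TREM2-R47H+/+, inducible forms of a lipid-sensing receptor of microglia, of which R47H is a variant linked to the risk of Alzheimer's disease. The groups WT_induced and R47H_induced had received tamoxifen to switch on TREM2 in microglia, and WT_control and R47H_control had received corn oil. The labels name no age. Each form of TREM2 was represented by 1 genotype, so the form of TREM2 and any other difference between the lines cannot be told apart, and the same holds for tamoxifen and induction.

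Peptide hormones, neuropeptides and some growth factors leave neurons and endocrine cells through dense-core vesicles. Granins (Chga, Chgb, Scg2, Scg3 and, by its acidic, precursor-like character, Vgf) are packed in these vesicles, where they aggregate with cargo and are themselves cut into peptides. The convertases encoded by Pcsk1 and Pcsk2 cut prohormones at basic residues, carboxypeptidase E (Cpe) trims the exposed basic residues, and Scg5 encodes 7B2, the chaperone that the Pcsk2 product needs to become active. Which cell types of the cortex these RNAs come from was not tested, and a neuronal source is not assumed for each of them. The TREM2 alleles act in microglia.

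The promoters of several of these genes are known for cAMP response elements, the sites bound by CREB. The sequence was searched with that known, so its presence here is a description and not an independent result. Promoter windows (RefSeq, build GRCm38.p6, 250 bases before to 50 after the start) were at hand for 7 of the 9 genes, all but Vgf and Cpe. The full palindrome TGACGTCA was found in 3 of the 7 windows, those of Scg2, Chgb and Pcsk1, against 1.79% of 32851 promoter windows of the same length. Those windows were not limited to tested genes or matched for base content. The shorter core TGACG, searched on both strands and counted also inside the full site, was found in 7 of 7 windows against 20.8% of all windows. The excerpts below show the match of the 3 genes with the full site and of Scg5, which had the lowest p of the 9 genes in each line comparison, 5′ to 3′ on the gene's strand, with the matched letters in capitals.
Scg2: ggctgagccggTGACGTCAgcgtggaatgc
Chgb: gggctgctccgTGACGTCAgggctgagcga
Pcsk1: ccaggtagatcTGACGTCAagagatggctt
Scg5: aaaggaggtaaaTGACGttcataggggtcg
These stretches lie at chr1:79440076-79440105 (minus strand), chr2:132781559-132781588 (plus strand), chr13:75089768-75089797 (plus strand) and chr2:113829249-113829278 (minus strand). The match began 68, 72, 78 and 175 bases before the RefSeq start in Scg2, Chgb, Pcsk1 and Scg5. By the deposited gene coordinates, Scg2 begins at chr1:79440120 (minus strand) and Chgb at chr2:132781278, so these 2 stretches lie inside the genes. Scg5 also had matches of TGACG or its reverse at bases 20 and 41 counted from its RefSeq start. A match of letters is a description of the sequence and not evidence of a bound site.

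Total counts ran from 27933505 to 56082520 per library, and counts of the 9 genes ran from 835 for Pcsk1 to 76512 for Cpe, so none of them rested on few counts. Trem2 itself, measured at the mouse gene, lay between 5.41 and 9.32 CPM (counts scaled to the library total) over all 24 libraries, with overlapping groups. Pan-neuronal markers were abundant, with a summed level of 6751 to 7301 CPM over 10 genes. Striatal markers were also present in these cortex libraries, at 1338 to 1729 CPM summed over 13 genes, and none of them was at 0. Between 11.5% and 24.4% of a library's counts fell in 3 rRNA-like genes. In bulk tissue, fewer cells of a type and less RNA per cell cannot be told apart.

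Compared per length, as CPM per kilobase of the deposited gene length and averaged over the 24 libraries, Cpe was by far the most abundant of the 9 genes. Its level of 679 ± 26.6 CPM per kilobase (SD, n = 24) ranked 9 among the 19678 tested genes, and it made up 54.9% ± 0.95 (SD, n = 24) of the summed level per length of the 9 genes. Chgb followed at 126 ± 5.21 CPM per kilobase. Scg3 (83.8 ± 4.95), Scg5 (83.8 ± 9.996) and Scg2 (83.6 ± 5.49) had like mean levels per kilobase over all mice. By the deposited lengths, the place of Scg5 turned between the lines. In WT mice Scg5 averaged 73.3 ± 4.42 (control) and 75.7 ± 3.36 CPM per kilobase (induced; SD, n = 6), below Scg3 (84.7 ± 3.58 and 89.6 ± 3.65) and Scg2 (80.1 ± 3.36 and 90.1 ± 3.47). In R47H mice it averaged 91.9 ± 2.37 and 94.1 ± 2.36, above Scg3 (79.3 ± 2.80 and 81.4 ± 2.56) and Scg2 (82.8 ± 3.70 and 81.4 ± 5.39). Chga stood at 67.6 ± 3.93 CPM per kilobase over all mice. Vgf (53.1 ± 7.91) and Pcsk2 (49.5 ± 1.48) came next, with Vgf above Pcsk2 in WT_induced (61.2 ± 4.60 against 49.4 ± 0.84) and close to it in R47H_control (46.1 ± 5.09 against 48.5 ± 1.26). Pcsk1 was the least abundant, at 10.9 ± 1.16 CPM per kilobase, rank 4661. For 4 genes the deposited length is shorter than the exon bases of the GENCODE annotation used for comparison: 3241 against 5604 bases for Pcsk1, 1882 against 2756 for Chga, 2249 against 2738 for Scg3 and 2087 against 2609 for Cpe. The levels per length of these genes, and the places of Chga and Scg3 in this order, therefore depend on the gene model. With the GENCODE length of Scg3, the Scg5 means would lie above those of Scg3 in WT mice too. The turn of Scg5 against Scg2 is not affected, since the lengths of both are the same in the 2 sources.

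The genes also differed in how much mice of 1 group varied. The within-group SD on the log2 scale was 0.03 for Pcsk2 and 0.04 for Chgb, and 0.12 for Vgf and 0.16 for Pcsk1, beside a median of 0.12 over all tested genes. Among genes of like abundance, 2.65% had a smaller spread than Pcsk2, while 95.4% had a smaller spread than Vgf and 96.1% a smaller spread than Pcsk1.

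**Figure D1:**
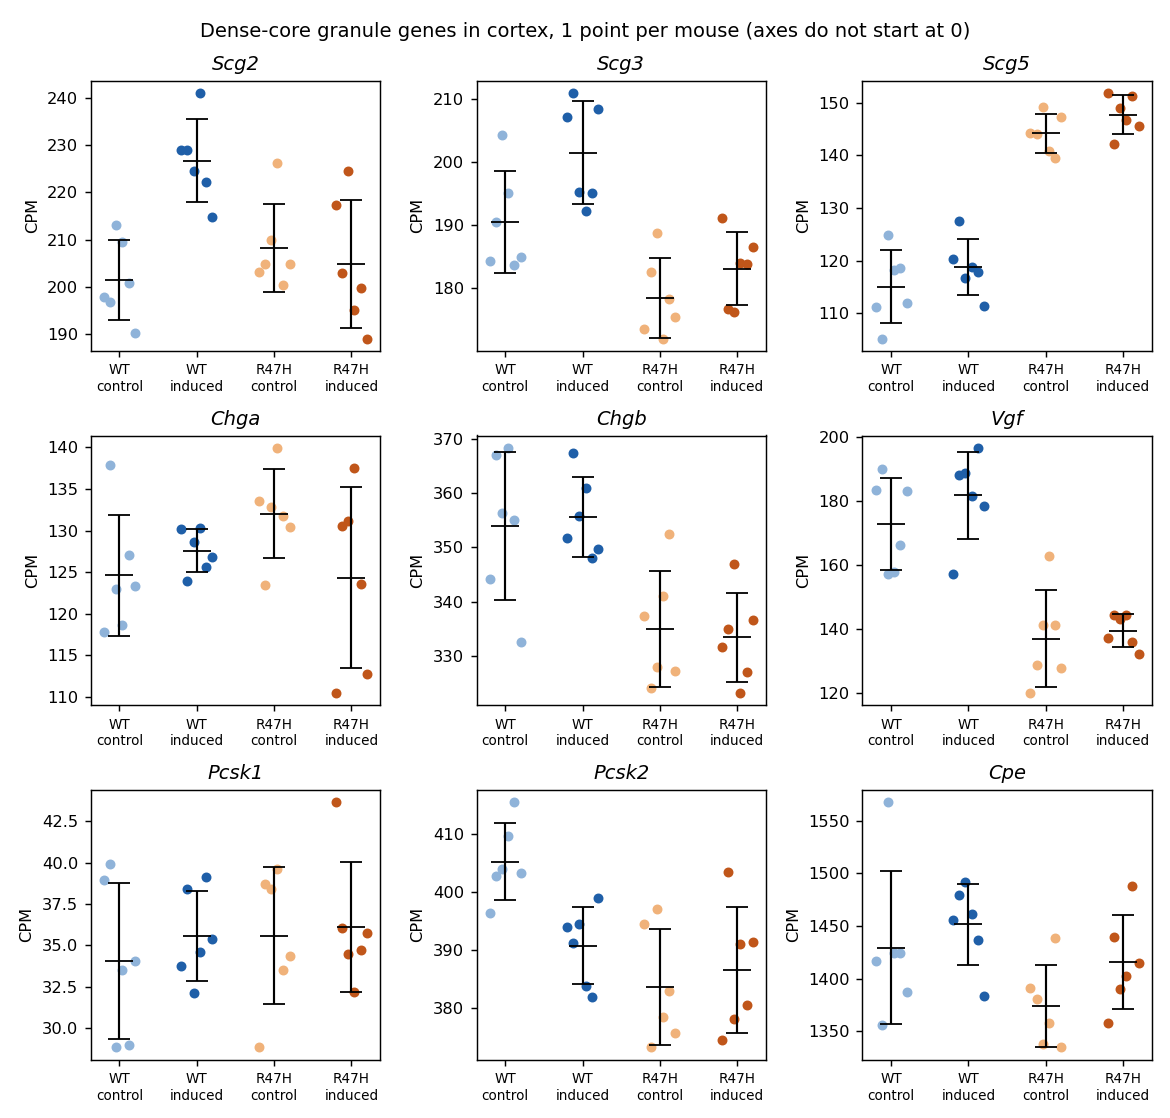
Level of each of the 9 genes in every mouse, in CPM (vertical axes, which do not start at 0), by group (horizontal axis), with 1 point per library and bars for the mean ± SD of 6 mice. Scg5 is higher in all 12 R47H mice than in any WT mouse, and Vgf is lower in the R47H groups, while Pcsk1 and Chga overlap in every comparison.

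The first question was how the R47H line differed from the WT line, in mice of the same treatment. In induced mice 4 of the 9 genes passed the test (edgeR's quasi-likelihood test, Benjamini-Hochberg adjusted p below 0.05 over all tested genes): Scg5 was higher, and Vgf, Scg3 and Scg2 were lower in R47H. Across all tested genes 5.8% passed in that comparison. In control mice 2 of the 9 passed, Scg5 higher and Vgf lower, where 5.74% of all tested genes passed. Averaged over both treatments 4 of the 9 passed, Scg5 higher and Vgf, Scg3 and Chgb lower, against 13.8% of all tested genes. The median log2 fold change of the 9 genes was -0.04 in induced and -0.06 in control mice, beside 0.00 in each over all tested genes. The values below go through the genes by role.

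Scg5, the 7B2 chaperone gene, lies at chr2:113776362-113829121 (mm10). In WT_control its level was 105 CPM at the lowest, 115 at the median and 125 at the highest, and in WT_induced 111, 118 and 128 CPM. In R47H_control it was 139, 144 and 149 CPM, and in R47H_induced 142, 148 and 152 CPM. Every R47H mouse was therefore above every WT mouse, whichever treatment is taken, while the treatments overlapped within each line. The log2 fold change of R47H against WT was 0.33 (SE 0.03, adjusted p = 1.25e-06, edgeR) in control mice and 0.31 (SE 0.03, adjusted p = 1.89e-06, edgeR) in induced mice, a rise of 25.4% and 24.3%. Averaged over treatments it was 0.32 (SE 0.02, adjusted p = 6.65e-10, edgeR), the 5th lowest p of all tested genes. The groups did not overlap for 3.18% of all tested genes in control mice and 3.25% in induced mice.

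The size of this difference was much alike in mice with and without tamoxifen. The change of the Scg5 line difference with induction was -0.01 (normal 95% interval -0.11 to 0.08, log2 scale). It was called under each of the 12 other settings tried in control and induced mice, at log2 fold changes of 0.27 to 0.35, and with any 1 of the 24 libraries left out, at 0.30 to 0.35.

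No gene close to Scg5 on chromosome 2 was called higher in R47H with it. Of 11 other tested genes within 1 Mb, only Ryr3, an intracellular calcium channel gene whose near end is 559 kb away, passed in the comparison averaged over treatments, and it was lower in R47H (log2 fold change -0.15, SE 0.04, adjusted p = 0.0281, edgeR). Across all tested genes 13.8% passed in that comparison. Arhgap11a, whose near end lies 2.37 kb from that of Scg5, had a log2 fold change of 0.08 (SE 0.07), and Grem1, 17.7 kb away on the other side, one of 0.14 (SE 0.07). Gjd2 (0.11, SE 0.05), both entries of A530058N18Rik (0.21 and 0.05) and Dph6 (0.01) were also positive. Fmn1 (-0.05), a separate entry FMN1 (-0.10), Aqr (-0.05) and Zfp770 (-0.004) were negative, and none of them passed. So few neighbours say little about the region. In the GENCODE annotation used for comparison no exon of another gene overlaps those of Scg5, and how the deposited counts assigned reads was not tested.

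**Figure D2:**
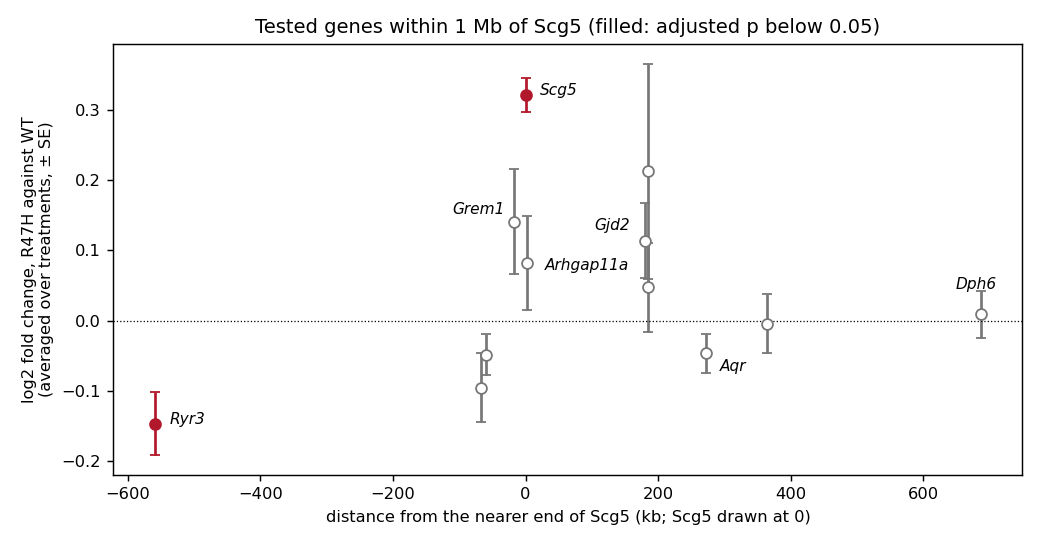
Log2 fold change of R47H against WT averaged over treatments (vertical axis, bars are ± SE) against distance from Scg5 in kb (horizontal axis) for tested genes within 1 Mb, filled where the adjusted p is below 0.05. Scg5 stands at 0.32, and Ryr3 is the only other filled point, at -0.15.

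The gene of the convertase that 7B2 serves was not called higher in either treatment. Pcsk2 lay at 396, 404 and 415 CPM (lowest, median, highest) in WT_control and at 382, 393 and 399 in WT_induced. In R47H_control it lay at 373, 381 and 397 CPM, and in R47H_induced at 375, 386 and 404. The R47H groups overlapped the WT groups of the same treatment. Its log2 fold change in control mice was -0.08 (SE 0.02, adjusted p = 0.0564, edgeR), just short of the threshold. It was called under 6 of 12 other settings, among them a threshold of 0.1, which leaves its adjusted p unchanged. It was also called without R47H_control replicate 3 (adjusted p = 0.0418). In induced mice the value was -0.02 (SE 0.02). Antisense transcripts Pcsk2os1 and Pcsk2os2 overlap 4.54% of the Pcsk2 exon bases, and without strand their reads cannot be told from those of Pcsk2.

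Taken as a ratio of levels per kilobase within each mouse, Scg5 over Pcsk2 ran from 1.32 to 1.56 in WT_control and 1.41 to 1.64 in WT_induced, whereas R47H_control mice had 1.84 to 1.98 and R47H_induced mice 1.78 to 2.04. The means ± SD (n = 6 each) were 1.43 ± 0.08, 1.53 ± 0.08, 1.89 ± 0.06 and 1.93 ± 0.10. The lines did not overlap in either treatment, and a ratio within a library does not depend on how libraries are scaled. Because Scg5 alone already separated the lines and Pcsk2 varied little, the ratio restates the Scg5 difference and is not a separate result.

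**Figure D3:**
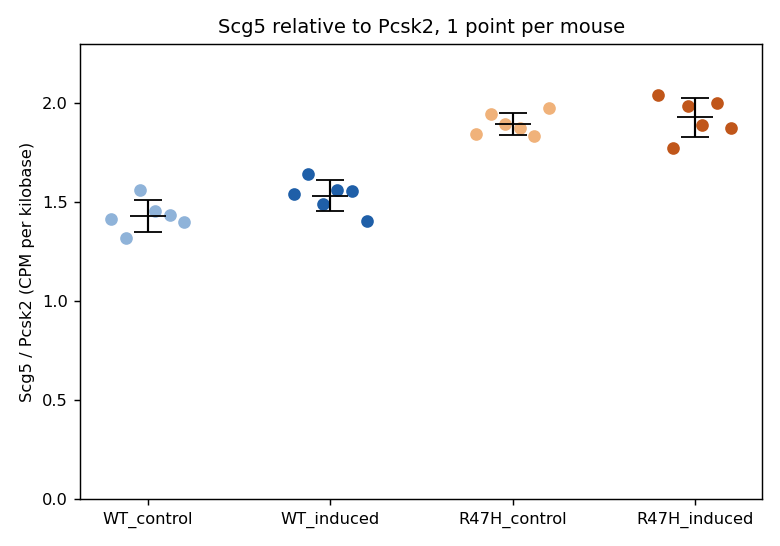
Ratio of Scg5 to Pcsk2, both as CPM per kilobase (vertical axis, from 0), for each mouse by group (horizontal axis), with bars for the mean ± SD of 6 mice. The 12 WT mice lie between 1.32 and 1.64 and the 12 R47H mice between 1.78 and 2.04.

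Pcsk1, the other convertase, and Cpe, the trimming enzyme, did not pass in any line comparison. Group means of Pcsk1 ± SD (n = 6) were 34.0 ± 4.73, 35.6 ± 2.72, 35.6 ± 4.14 and 36.1 ± 3.93 CPM in the order WT_control, WT_induced, R47H_control, R47H_induced. Its wide spread leaves room for moderate changes: the normal 95% interval of the averaged line difference was -0.08 to 0.20 on the log2 scale. Cpe stood at 1429 ± 72.7, 1452 ± 38.5, 1374 ± 39.0 and 1416 ± 44.6 CPM in the same order, and its averaged line difference was -0.05 (SE 0.02, adjusted p = 0.159, edgeR).

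Vgf, a secreted precursor of bioactive peptides whose RNA is known to rise with neurotrophins and neuronal activity, lies at chr5:137026392-137033351 (mm10) and fell the most of the 9 genes in R47H. Its level was 157, 175 and 190.1 CPM (lowest, median, highest) in WT_control and 157, 185 and 197 CPM in WT_induced. In R47H_control it was 119.9, 135 and 163 CPM, and in R47H_induced 132, 140.1 and 144 CPM. In induced mice the lines did not overlap, and in control mice the highest R47H mouse, replicate 4, exceeded the lowest WT mice.

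The log2 fold change of Vgf was -0.34 (SE 0.06, adjusted p = 0.00186, edgeR) in control mice and -0.38 (SE 0.06, adjusted p = 0.000485, edgeR) in induced mice, and -0.36 (SE 0.04, adjusted p = 4.13e-06, edgeR) averaged over both. The difference between these line differences was -0.05 (normal 95% interval -0.22 to 0.13). Other measures moved with the lines: the rRNA-like share averaged 15.9% in WT_control and 20.3% in R47H_control, and the summed striatal markers were 1500 to 1723 CPM in WT_control and 1338 to 1481 CPM in R47H_control. With the striatal list as a covariate the control comparison of Vgf was no longer called (-0.28, SE 0.08, adjusted p = 0.0675), and with the rRNA-like share it was -0.26 (adjusted p = 0.0364). In induced mice the rRNA-like share averaged 18.3% in WT and 17.0% in R47H. The summed striatal markers differed there too, at 1603 to 1729 CPM in WT_induced and 1338 to 1526 CPM in R47H_induced. Vgf in induced mice was called under all 12 other settings, at -0.40 to -0.32.

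Scg3, which links granin aggregates to the vesicle membrane, was lower in R47H by less. It ran from 184 to 204 CPM in WT_control (median 188) and from 192 to 211 in WT_induced (median 201), whereas R47H_control ran from 172 to 189 (median 177) and R47H_induced from 176 to 191 (median 184). The lines did not overlap in induced mice and overlapped in control mice. The fold change was -0.14 on the log2 scale (SE 0.03, adjusted p = 0.00937, edgeR) in induced mice and -0.12 (SE 0.02, adjusted p = 0.000773, edgeR) averaged over treatments. In control mice it was -0.09 (SE 0.03, adjusted p = 0.0826, edgeR) and did not pass, though it did without R47H_control replicate 3 (adjusted p = 0.0474) and with the striatal list as a covariate (-0.15, adjusted p = 0.044). When libraries were scaled by their totals, the induced comparison lost its call (-0.11, adjusted p = 0.154) and the control comparison gained one (-0.15, adjusted p = 0.0235).

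Chgb, the most abundant granin per length, showed a small difference of the same sign. Its levels were 333, 356 and 368 CPM (lowest, median, highest) in WT_control and 348, 354 and 367 in WT_induced. The R47H_control mice had 324, 333 and 352 CPM, and the R47H_induced mice 323, 333 and 347. All induced R47H mice lay below all induced WT mice, by a narrow margin. The averaged line difference was -0.09 (SE 0.02, adjusted p = 0.0041, edgeR), which was lost with the striatal list as a covariate (-0.07, adjusted p = 0.209). Within treatments it was -0.09 (SE 0.03, adjusted p = 0.0509) in induced and -0.08 (SE 0.03, adjusted p = 0.0996) in control mice by edgeR, and neither passed. In induced mice it did pass under 6 of 12 other settings, among them DESeq2 (adjusted p = 0.00678) and limma-voom (adjusted p = 0.0349). In control mice it passed under DESeq2 (adjusted p = 0.0411), library totals (-0.14, adjusted p = 0.0229) and a threshold of 0.1. The threshold of 0.1 is among the settings counted in both treatments and leaves the adjusted p unchanged.

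Scg2, the precursor of secretoneurin, behaved differently from Scg3 and Chgb in that its 4 groups were not ordered by line. It ran from 190.3 to 213 CPM in WT_control (median 199) and 215 to 241 in WT_induced (median 227). R47H_control ran from 200.4 to 226 CPM (median 205) and R47H_induced from 189 to 225 (median 201). WT_induced was the high group, and the other three overlapped one another. R47H against WT in induced mice gave -0.15 (SE 0.04, adjusted p = 0.0221, edgeR), with overlapping groups, and in control mice 0.05 (SE 0.04), which did not pass. The induced call was lost without WT_induced replicate 4 (adjusted p = 0.0615) and without R47H_induced replicate 4 (adjusted p = 0.0552), 5 (adjusted p = 0.0509) or 6 (adjusted p = 0.068), and also under library totals (-0.11, adjusted p = 0.2), the striatal covariate (-0.13, adjusted p = 0.198) and a fit of only the 12 libraries compared (adjusted p = 0.0518).

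Chga, the granin that gives the family its name, did not pass in either line comparison. Its means ± SD (n = 6) were 125 ± 7.33 CPM in WT_control and 128 ± 2.57 in WT_induced, beside 132 ± 5.33 in R47H_control and 124 ± 10.8 in R47H_induced. The log2 fold change was 0.08 (SE 0.04) in control and -0.04 (SE 0.04) in induced mice. Over the 24 libraries, with group means removed, Chga followed the mean of the striatal markers (r = 0.66), which the other 8 genes did less or inversely (r = -0.46 to 0.36).

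**Figure D4:**
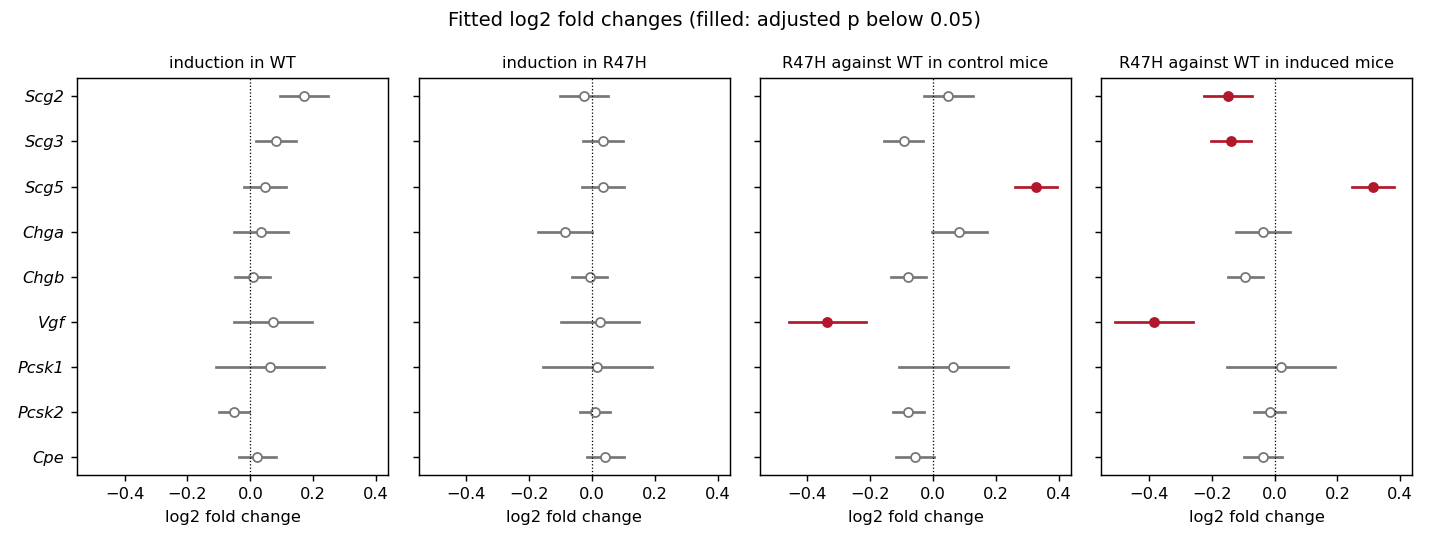
Fitted log2 fold changes (horizontal axis) with normal 95% intervals for the 9 genes in each pairwise comparison, filled where the adjusted p is below 0.05. Points are filled only in the R47H against WT panels, where Scg5 lies at 0.33 and 0.31 and Vgf at -0.34 and -0.38.

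The second question was whether inducing TREM2 in microglia changed the granule genes. In WT mice 0 of the 9 genes passed edgeR's test, as did 0% of all tested genes, and 3 of the 9 had an unadjusted p below 0.05, against 7.85% of all tested genes. In R47H mice 0 of the 9 passed, again with 0% of all tested genes, and 0 of the 9 had an unadjusted p below 0.05, against 5.11% of all. DESeq2 called 1 of the 9, Scg2, in WT mice and 0 in R47H mice, beside 10 and 4 of all tested genes.

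The largest value in WT mice was that of Scg2, whose levels in WT_induced (215 to 241 CPM) lay wholly above those of WT_control (190.3 to 213 CPM). Its log2 fold change was 0.17 (SE 0.04, unadjusted p = 0.000156, adjusted p = 0.452, edgeR), or 12.6% higher, and DESeq2 gave an adjusted p of 0.0396. Groups did not overlap for 0.234% of all tested genes in that comparison. Without WT_induced replicate 6 the value was 0.19 (adjusted p = 0.306), and over all single libraries left out the adjusted p was 0.177 to 0.793. Scg3 had a value of 0.08 (SE 0.03, adjusted p = 0.546) and Pcsk2 one of -0.05 (SE 0.02, adjusted p = 0.617) by edgeR, and the other 6 genes lay between 0.01 and 0.07.

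In R47H mice the log2 fold changes with induction ran from -0.09 for Chga to 0.04 for Cpe, and Scg2 stood at -0.02 (SE 0.04). The difference between the inductions of the lines, tested as an interaction, passed for 0 of the 9 genes, and 0% of all tested genes passed. Scg2 had the only unadjusted p below 0.05 there, with a value of -0.20 (SE 0.06, unadjusted p = 0.00146, adjusted p = 0.433, edgeR), against 7.94% of all tested genes. Averaged over the lines, induction gave 0.07 (SE 0.03) for Scg2 and 0.06 (SE 0.02) for Scg3, at an adjusted p of 0.995 for each by edgeR, and no gene of the whole table passed (4.64% had an unadjusted p below 0.05).

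Other genes of the regulated secretory pathway were read from 3 lists drawn up for this purpose. Across all tested genes 5.8% passed in induced mice, 5.74% in control mice and 13.8% averaged over treatments. Of 10 further processing enzymes and inhibitors, 0 passed in induced mice and 1 in control mice, Qpct, which forms the pyroglutamate end of peptides and was higher in R47H (0.32 on the log2 scale, SE 0.08, adjusted p = 0.0128, edgeR). Averaged over treatments 3 of the 10 passed: Qpct (0.22) and Ctsl, a cathepsin that can cut prohormones (0.11), were higher, and the convertase gene Pcsk6 was lower (-0.14). The median of this list was 0.02 in both treatments. Of the 18 measured genes of vesicle formation and release, out of 20 listed, 1 passed in each treatment, near the share over all tested genes. It was the small GTPase gene Rab2a, which takes part in vesicle maturation. Rab2a was higher in R47H by 0.21 (SE 0.04, adjusted p = 0.000739, edgeR) in control and by 0.24 (SE 0.04, adjusted p = 0.000115, edgeR) in induced mice. Syt4, a synaptotagmin of dense-core vesicles, joined it in the averaged comparison (0.11, adjusted p = 0.00623, edgeR). The 2 of 18 called there were no larger a share than that over all tested genes.

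Among the cargo genes of these vesicles, calls in induced mice were all in the direction of lower RNA in R47H. Of 20 genes for neuropeptides and other cargo, 8 passed there, with a list median of -0.25 on the log2 scale, and 3 of the 20 had a positive value. Across all tested genes 5.8% passed in induced mice and 5.74% in control mice. The lowest p-values were those of the opioid precursor genes Penk (-0.29, SE 0.05, adjusted p = 0.000917) and Pdyn (-0.26, SE 0.05, adjusted p = 0.00145) and of the neurotrophin gene Bdnf (-0.46, SE 0.09, adjusted p = 0.00142), all by edgeR. In control mice 2 of the 20 passed, Bdnf (-0.46, SE 0.09, adjusted p = 0.00169) and Penk (-0.19, SE 0.05, adjusted p = 0.0238), both lower, and the list median was 0.03. Penk and Pdyn are also abundant in striatal neurons, whose markers were lower in R47H (4 of 13 called in induced and 7 of 13 in control mice, medians -0.14 and -0.18). The cargo and striatal lists share Penk and Tac1, so Penk counts among the calls of both. Markers of other regions moved too. In induced mice 7 of 9 hypothalamic markers had a negative value in R47H (median -0.60), 1 of them, Hdc, was called (-0.51, adjusted p = 0.0365, edgeR), and their summed level was 16.6 to 50.8 CPM in WT and 14.1 to 24.9 CPM in R47H. All 8 choroid plexus markers had a positive value there (median 0.70, 0 called), at a summed 20.4 to 261 CPM in WT and 20.2 to 635 CPM in R47H. In control mice 6 of the 9 hypothalamic markers had a positive value in R47H (median 0.22, 0 called). With induction in WT mice 19 of the 20 cargo genes and 8 of the 9 hypothalamic markers had a positive value (medians 0.12 and 0.63). That held for 50.9% of all tested genes. With induction in R47H mice 6 of the 20 and 4 of the 9 did (median -0.05 each), against 52.7% of all tested genes. For both inductions 0 genes of these lists were called. The part of the tissue markers in the cargo result was not tested.

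Genes of neuronal activity, to which Vgf and Bdnf are often counted, had opposite medians in the treatments. In control mice 19 of 20 had a negative value in R47H, with a median of -0.38, and 0 passed, while 3 had an unadjusted p below 0.05: Egr1 (-0.61, adjusted p = 0.0695), Egr4 (-0.48, adjusted p = 0.153) and Nr4a1 (-0.76, adjusted p = 0.179) by edgeR. In induced mice the median was 0.06 and 1 of 20 passed, Inhba, which was lower (-0.45, SE 0.10, adjusted p = 0.00974, edgeR), where 5.8% of all tested genes passed. With this list as a covariate, an alternative chosen after seeing the data, the log2 fold change of Vgf was -0.31 (SE 0.07, adjusted p = 0.00999, edgeR) in control and -0.39 (SE 0.06, adjusted p = 0.000444, edgeR) in induced mice. Of 10 pan-neuronal markers 0 passed in induced mice, and 1, Rbfox3, was lower in control mice (-0.11, adjusted p = 0.0197). Their list medians were -0.01 and -0.05, and 5 of the 10 had an unadjusted p below 0.05 by edgeR in each treatment. Averaged over treatments 3 were called lower, Nefl (-0.09), Map2 (-0.09) and Rbfox3 (-0.07). In that comparison 2 were called higher, Tubb3 (0.12) and Eno2 (0.07), where 13.8% of all tested genes passed.

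Within groups the 9 genes did not vary as a block. Correlations of log2 CPM with group means removed, over 24 libraries that share depth and scaling within a library, ran from -0.53 to 0.54 over the 36 pairs, with a median of 0.06 and 21 positive. The highest was between Vgf and Pcsk1 (r = 0.54, and 0.52 without the 2 mice farthest in Vgf), and the lowest between Pcsk1 and Cpe (r = -0.53, and -0.50 without the 2 mice farthest in Pcsk1). Scg5 and Vgf, which differed between the lines in opposite directions, had r = -0.45 within groups, and -0.29 without the 2 mice farthest in Scg5.

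**Figure D5:**
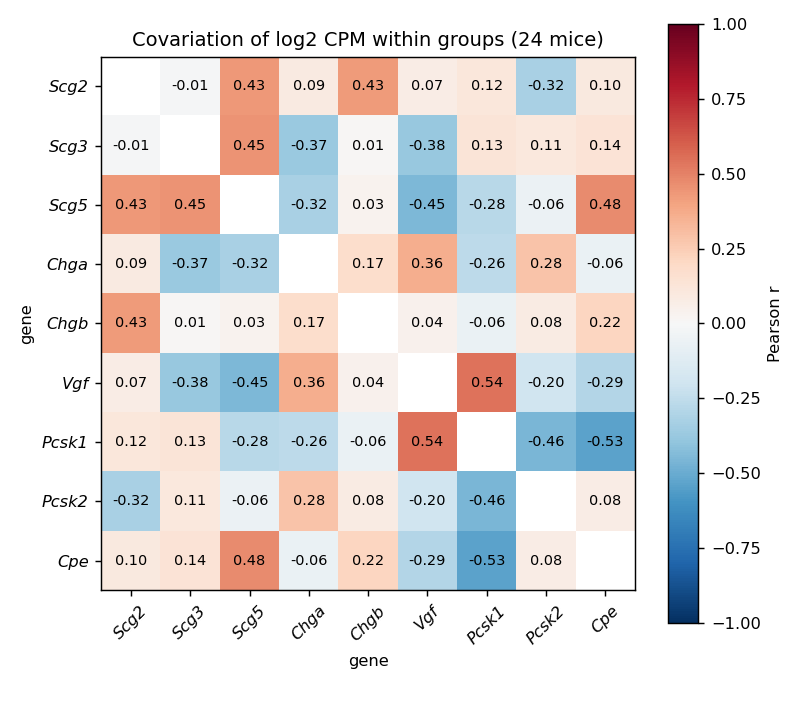
Pearson r between each pair of the 9 genes (both axes) for log2 CPM with group means removed, over 24 mice, coloured from -1 to 1. Values run from -0.53 (Pcsk1 with Cpe) to 0.54 (Vgf with Pcsk1), with no block of high values across the set.

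Outside the set, the genes most like each member by the same measure (Pearson r over 24 libraries, the 3 highest of all tested genes) differed from member to member. For Vgf they were Kctd1 (r = 0.86), the activity-regulated factor gene Egr3 (0.82) and Dhx16 (0.81). For Pcsk1 they were the synaptic scaffold gene Homer1 (r = 0.87), Jmjd1c (0.81) and Ccar1 (0.81). For Scg5 they were Atp5j, a subunit gene of ATP synthase (r = 0.80), Qpct (0.78) and Cul1 (0.75). For Chga they were Abcb9 (r = 0.85), Nol3 (0.83) and Tmem109 (0.83). The closest gene was Ccdc85a for Scg3 (r = 0.81), Cpe had Bex1 (0.79), Chgb had Brinp1 (0.78), Pcsk2 had Slc25a26 (0.75) and Scg2 had Sema3c (0.71). These values are the highest of 19669 candidates for each gene and carry no test. With the mean of the whole activity list Vgf had r = 0.23, and with the rRNA-like share -0.45, group means removed.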

How the data were processed

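The authors deposited raw read counts for each gene, as whole numbers without any normalization. Per the submitters' processing notes, STAR 2.5.2b, featureCounts 1.5.1 and the build mm10 were used. Per the labels' protocols, RNA was poly-A enriched and prepared with TruSeq RNA kit v2, which does not mark strand. The sources used here give neither the counting options nor the annotation release. Samples were grouped by the genotype and treatment labels, taken as 1 mouse each. The 60 pairs of libraries within groups differed by more than sampling noise (chi-square per degree of freedom 4.31 to 61.7).

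Counts were scaled by TMM, filtered by filterByExpr and compared by the robust quasi-likelihood test of edgeR 4.0.16 (R 4.3.3) in 1 fit over 24 libraries, with Benjamini-Hochberg adjustment over 19678 genes and a threshold of 0.05. CPM are relative to the TMM-scaled total, and log2 CPM used a prior count of 2. Depth per library is given with the results.

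Alternatives were RLE size factors, library totals, no filter, a filter of 1 CPM in 6 libraries, DESeq2 1.42.0, limma-voom (limma 3.58.1), only the 12 libraries compared, covariates (sex from Y-linked genes and Xist, rRNA-like share, striatal list), a call threshold of 0.1, and leaving out each library. A covariate for the activity list was chosen after seeing the data. The procedure was tested on simulated data.

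The 9 genes, the lists and the tests were chosen with earlier results of these data known. Levels are given for each of the 9 genes, with fold changes, errors and p where its unadjusted p was below 0.05, and by range or as examples otherwise. From the other lists, called genes are named, or the 3 lowest p where none or more than 5 were called. Intervals for genes without a call, neighbours of Scg5, Chga and the ratio were chosen after values were seen.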

Additional observations from a re-analysis of the deposited data

Results flagged for a closer look

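Of 36 sets of 6 mice (9 genes in 4 groups), 3 held a mouse far from the others by Dixon's test, which chance gives in about 1 of 20 sets. Scg2 was 226 CPM in R47H_control replicate 4, where the gap to the next mouse took up 0.635 of the group's range. Pcsk1 was 43.7 CPM in R47H_induced replicate 1 (0.662 of the range). Cpe was 1568 CPM in WT_control replicate 3 (0.676 of the range). The 3 values come from 3 different mice and are all the highest of their group.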

How the results depend on the processing

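Of 783 values of 22 results for single granule genes under other settings, 737 kept their side of the threshold, 10 lost a call, 36 gained one and 0 reversed. The number of the 9 genes called moved with the scaling, the tool, the threshold and single libraries. It went from 0 to 1 under DESeq2 for induction in WT mice, beside 10 of all tested genes. For R47H against WT it went from 4 to 2 under library totals in induced mice. In control mice it went from 2 to 5 under library totals, 4 under DESeq2 and 5 at a threshold of 0.1. At 0.1 the count over all tested genes there went from 1129 to 1953. Between the lines, the counts over all tested genes under library totals and DESeq2 are not given here. With 1 library left out the number of the 9 genes called was 3 to 5 in induced mice and 2 to 4 in control mice. The 4 was reached without R47H_control replicate 3, and the number was 0 for both inductions. Over all tested genes such fits called 875 to 1156 in induced mice and 823 to 1260 in control mice. Chgb in induced mice (adjusted p = 0.0509) passed in 9 of 24 such fits, without WT_control replicate 2, 4 or 6, WT_induced replicate 5, R47H_control replicate 1, 2, 5 or 6, or R47H_induced replicate 3, at an adjusted p of 0.0342 to 0.0499. In control mice it passed without WT_control replicate 6 (adjusted p = 0.0458), and Pcsk2 passed in the averaged comparison without R47H_induced replicate 2 (adjusted p = 0.0441, against 0.0717). The cause was not tested.

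Counts over all genes moved too. They went from 1142 to 463 with the striatal covariate and 1853 at a threshold of 0.1 in induced mice, from 1129 to 378, to 451 with the rRNA-like share and to 1953 at 0.1 in control mice, and from 2724 to 825 with the striatal covariate when averaged. DESeq2 called 10 genes for induction in WT, 4 in R47H, 3 for their difference and 4 for the average, against 0 by edgeR. Library totals changed the share of calls that were higher in R47H from 44.6% to 63.8% in induced mice, from 46.9% to 14.3% in control mice and from 48.0% to 37.8% averaged, and moved the median of all genes by at most 0.09 (log2).

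No paired analysis was possible because the labels number all mice in 1 running series, so the groups share no replicate number. Depth limited none of the 9 genes, whose lowest count was 835.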
